A study of Mus musculus with 6 samples.

Results

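The genes described here are regulators and targets of the transcription factor NRF2 together with the main antioxidant enzymes of the cell, 33 genes in all. They were chosen by symbol, and all 33 have a row among the 25006 genes of the deposited count table. The table holds RNA sequencing of corneal epithelial sheets, the layered cell sheet on the front of the mouse eye, from 3 samples of wild-type mice and 3 with the label EphA2 null. The EphA2 protein, a tyrosine kinase at the cell surface, is activated by ephrin-A ligands on neighbouring cells. Genotype is the only difference between the groups that the labels state. The sources used here do not give strain, age, sex, the design of the null allele or whether the 6 samples are separate animals. P-values therefore reflect only how far these samples scatter, and that scatter may be technical.

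NRF2, encoded by Nfe2l2, is held in the cytoplasm by KEAP1, which hands it to a ubiquitin ligase for destruction. Oxidants and electrophiles modify cysteines of KEAP1, NRF2 then accumulates, and it binds antioxidant response elements with a small MAF partner. Its targets make glutathione, regenerate thioredoxin, conjugate electrophiles, supply NADPH and store iron. The corneal epithelium is exposed to light and oxygen and is known for abundant soluble enzymes that handle peroxides and aldehydes.

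Total counts ran from 15308013 to 27586942 per library. The corneal keratin genes Krt12 and Krt5 and the eye transcription factor gene Pax6 were detected in every library. Epha2 itself was not lower in the libraries with the null label: it was at 298, 253 and 563 CPM (counts scaled to library size with TMM factors) in wild type and at 285, 653 and 578 CPM in the others. These 3 libraries are therefore called null-labelled, and each genotype direction rests on the label. The sample titles carry a number that splits the libraries into a lower range (wild type 1 and 2, null-labelled 1) and a higher range (wild type 3, null-labelled 2 and 3). Wild type 1 and 2 share a number and differ in a title letter, as do null-labelled 2 and 3. What the number and the letter stand for is not given. Epha2 was 2.10-fold higher in the higher range, with genotype as a term (log2 fold change 1.07 ± 0.11 (SE), edgeR adjusted p = 0.00174). Its log2 ratio of null-labelled over wild type was 0.05 within the lower range and 0.13 within the higher. Over all 12847 tested genes, 5740 were called by this range and 1 by genotype, so each comparison was made for both. Values in each sentence follow the library order 1, 2, 3.

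Together the 33 genes took between 2.86% and 3.91% of all counts of a library. Of those counts, between 82.4% and 85.5% belonged to only 2 genes, the glutathione transferase genes Gsto1 and Gsta4. Gsto1 (ENSMUSG00000025068, chromosome 19, 47854970 to 47864790 in GRCm38) encodes an omega-class enzyme that reduces thiol adducts and dehydroascorbate. It was at 19138, 18200 and 22453 CPM in wild type and 24099, 19269 and 19693 CPM in the null-labelled libraries. The highest and the lowest library were both within the lower title numbers. Gsta4 (ENSMUSG00000032348, chromosome 9, 78182774 to 78209349), whose product conjugates the lipid peroxidation aldehyde 4-hydroxynonenal, was at 7452, 7933 and 5369 CPM in wild type and 7836, 6155 and 5241 CPM in the null-labelled libraries.

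Levels of different genes were compared per length, as RPKM (CPM per kilobase of exon). Exon length, here and below, joins all annotated exons of a gene, so RPKM is too low where transcripts use only part of them. Ranks by RPKM depend on this. Prdx6, with 986 CPM and 4804 bases, comes below Txn1, with 300 CPM and 1051 bases. Gsto1 had a mean of 10121 RPKM and Gsta4 one of 5264, ranks 2 and 6 among the 24991 genes with a length. In all, 7 members lay above 200 RPKM. Besides these transferases they were Prdx5 (287 RPKM), Txn1 (286), Fth1 (253), Gpx1 (211) and Prdx6 (205), which encode a peroxiredoxin, thioredoxin, the ferritin heavy chain, a selenium-dependent glutathione peroxidase and another peroxiredoxin. A further 21 members lay between 10 and 200 RPKM, and 5 lay under 10 RPKM. The lowest were the cystine transporter gene Slc7a11 (0.155 RPKM), the heme oxygenase gene Hmox1 (1.87) and the malic enzyme gene Me1 (2.19), all widely used as readouts of NRF2 activity. Gstp1, the pi-class transferase gene, was at 10.1 RPKM. Nfe2l2 was at 43.5 RPKM and Keap1 at 11.8.

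**Figure D1:**
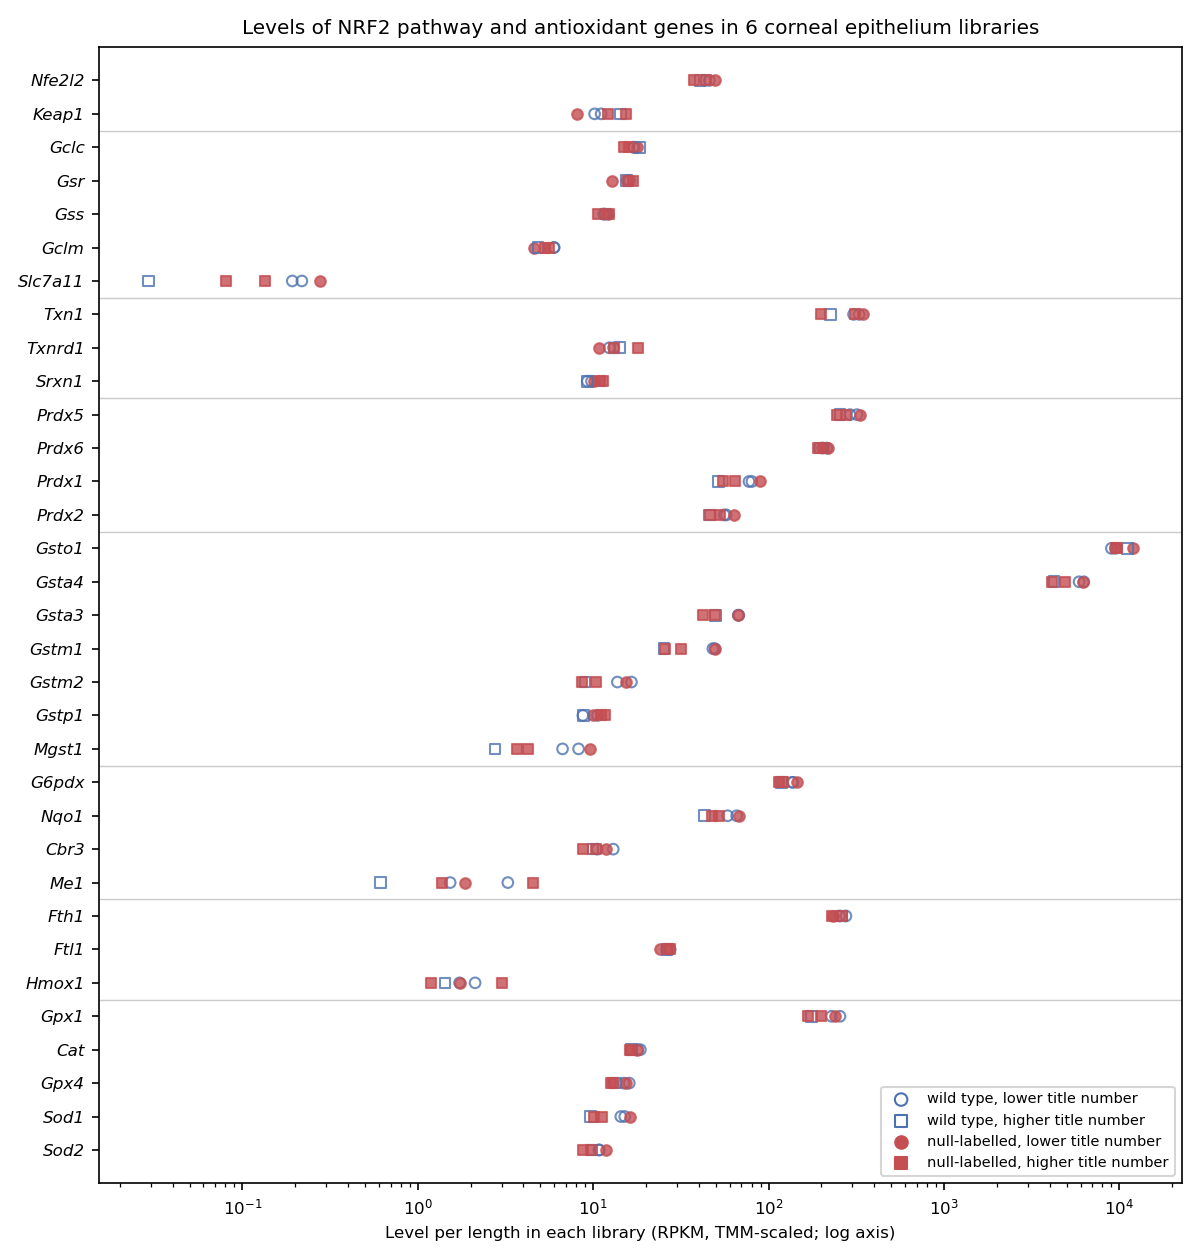
Level per length of the 33 genes in each of the 6 libraries, on a log axis in RPKM. Open blue symbols are wild type and filled red symbols are null-labelled, circles have lower and squares higher title numbers, and lines divide the genes by role. Gsto1 and Gsta4 stand apart at the right, and the values of Slc7a11 and Me1 at the left are the most spread.

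The spread over the 6 libraries differed between members. The coefficient of variation was under 10% for 10 members and had a median of 12.8%. It was smallest for the ferritin light chain gene Ftl1 (4.83%), the glutathione synthetase gene Gss (4.97%) and Prdx6 (5.07%). It was largest for Me1 (65.6%) and Slc7a11 (59.1%), which are also among the 3 members with the lowest RPKM.

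Promoters were read from RefSeq (GRCm38.p6), 250 bases before to 50 after a start site, which 28 of the 33 genes have in the table used. The core of the antioxidant response element, TGACNNNGC, was searched on both strands. It was in at least 1 window of 10 of the 28 genes (35.7%) and of 3781 of 27025 genes in the table (14.0%). By window it was in 10 of 37 member windows and 12.4% of all windows. The matches lay in Gsta3, Mgst1, Prdx1, Sod1, G6pdx, Gclm, Txnrd1, Nfe2l2, Me1 and Srxn1. It was in 5 of 13 members with a window that were called lower between the title number ranges described below, and in 5 of the 15 others. A match is a description of letters, not of binding. The stretches around 7 of them are printed to show how the same core stands in genes that did and did not differ between the title number ranges. Capitals mark the core, which reads GCNNNGTCA where it lies on the other strand. The first 5 belong to genes that were lower in the higher title numbers (below), the last 2 to genes that were not called.
Gsta3 (chr1:21240438-21240498, plus strand): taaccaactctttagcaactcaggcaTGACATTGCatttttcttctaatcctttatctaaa
Mgst1 (chr6:138140445-138140505, plus strand): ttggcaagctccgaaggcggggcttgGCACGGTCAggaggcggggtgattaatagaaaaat
Prdx1 (chr4:116685440-116685500, plus strand): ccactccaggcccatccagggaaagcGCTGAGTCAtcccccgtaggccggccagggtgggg
Sod1 (chr16:90220680-90220740, plus strand): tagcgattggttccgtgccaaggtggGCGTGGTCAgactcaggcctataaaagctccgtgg
G6pdx (chrX:74428903-74428963, minus strand): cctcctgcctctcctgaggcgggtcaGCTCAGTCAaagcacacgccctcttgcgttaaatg
Gclm (chr3:122245397-122245457, plus strand): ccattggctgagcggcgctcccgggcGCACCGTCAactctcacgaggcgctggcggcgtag
Txnrd1 (chr10:82859088-82859148, plus strand): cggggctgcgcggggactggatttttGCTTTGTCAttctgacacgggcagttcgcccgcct

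The cores of Prdx1 and Me1 also hold the AP-1 motif TGACTCA, so the same letters match both motifs there.

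The first comparison asked whether these genes differ between the genotypes. None of the 33 was called at an adjusted p under 0.05 in edgeR's quasi-likelihood test, with 0.00778% of all 12847 tested genes called, and DESeq2 and limma voom called none either. All 33 passed the filter on low counts. No member had an unadjusted p under 0.05, and every adjusted p was 0.9996. The log2 fold change, null-labelled over wild type, was above 0 for 13 members and below 0 for 20. Over all tested genes it was above 0 for 6816 and below 0 for 6031. Its median was -0.02 over the members, against 0.01 over all tested genes. Of the 33 members, 29 had a 95% interval inside a 2-fold difference in either direction, and 23 inside 1.5-fold. The 4 with wider intervals were Slc7a11, Me1, Mgst1 and Hmox1, whose intervals hold a 2-fold difference. In bulk RNA, here and below, fewer cells of a type and less RNA per cell cannot be told apart.

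Among the regulators, Nfe2l2 (ENSMUSG00000015839, chromosome 2, 75675513 to 75704641) was at 165, 174 and 154 CPM in wild type and 188, 167 and 143 CPM in the null-labelled libraries. The groups overlapped, and the genotype log2 fold change was 0.01 (95% interval -0.33 to 0.35). Keap1 (ENSMUSG00000003308, chromosome 9, 21229730 to 21239361) was at 52.1, 47.8 and 67.0 CPM in wild type and 37.7, 57.2 and 71.8 CPM in the null-labelled libraries. Its genotype log2 fold change was 0.00 (95% interval -0.59 to 0.59), and its 3 highest libraries were those with higher title numbers.

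Srxn1, which encodes the sulfiredoxin that repairs overoxidised peroxiredoxins, was the only member whose groups did not overlap. Wild type had 27.6, 26.1 and 26.2 CPM of it, and the null-labelled libraries had 28.6, 32.3 and 30.9 CPM. That is 1 of 33 members (3.03%), against 3.73% of all tested genes. The log2 fold change was 0.20 ± 0.13 (SE, n = 3 per group; edgeR adjusted p = 0.9996), the smallest unadjusted p of the list at 0.172.

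Gsta3, an alpha-class glutathione transferase gene, had the lowest genotype log2 fold change of the list (-0.22 ± 0.21). It was at 294, 291 and 216 CPM in wild type and 290, 215 and 185 CPM in the null-labelled libraries, and the groups overlapped. Gstp1 was at 16.4, 13.5 and 13.6 CPM in wild type and 15.5, 18.0 and 17.1 CPM in the null-labelled libraries (log2 fold change 0.22 ± 0.16). Fth1 measured 882, 957 and 907 CPM against 811, 910 and 798 CPM (-0.12 ± 0.12). Each pair of groups overlapped. Gpx4, the glutathione peroxidase gene that protects membrane lipids, had 25.8, 27.7 and 23.0 CPM in wild type and 26.4, 21.6 and 22.2 CPM in the null-labelled libraries (-0.12 ± 0.15). Me1 ranged most widely within each genotype, with 12.5, 5.88 and 2.36 CPM against 7.11, 17.4 and 5.27 CPM (0.50 ± 0.64). All 3 Gpx4 values of the higher title numbers lay below those of the lower ones, while the Me1 values followed neither grouping.

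Glutathione synthesis begins with glutamate-cysteine ligase, made of a catalytic and a modifier subunit. The catalytic subunit gene Gclc was at 63.6, 64.5 and 68.9 CPM in wild type and 66.7, 56.6 and 60.4 CPM in the null-labelled libraries (-0.10 ± 0.13). The modifier subunit gene Gclm was at 37.7, 37.5 and 30.5 CPM in wild type and 29.0, 33.5 and 35.2 CPM in the null-labelled libraries (-0.11 ± 0.16). Both subunit genes overlapped between the genotypes. Gss and the glutathione reductase gene Gsr had genotype log2 fold changes of 0.01 and -0.05.

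When the number range was added as a second term, edgeR again called none of the 33 by genotype, and 0.00778% of all genes. On that fit 22 members were above 0 and 11 below, with a median of 0.05. Of all tested genes 6398 were above 0 and 6449 below, with a median of -0.0007. An unadjusted p under 0.05 was reached by Mgst1, a microsomal glutathione transferase gene (log2 fold change 0.43), and by Slc7a11 (0.86), each with an edgeR adjusted p of 0.9996. That is 2 of 33 members, against 497 of all 12847 tested genes. For Mgst1 the genotype difference was 0.35 in libraries with lower numbers and 0.53 in those with higher ones. Across the list, 20 members had the same sign in both ranges, a share not counted over all tested genes.

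The second comparison set the 3 libraries with higher title numbers against the 3 with lower ones, with genotype as a term. Of the 33 members, 15 (45.5%) were called in edgeR, against 44.7% of all tested genes. Of these, 14 (42.4%) were lower in the higher title numbers, against 20.1% of all genes, and 1, Keap1, was higher, against 24.6%. The groups did not overlap for 19 members (57.6%), against 59.0% of all genes. Non-overlap between the ranges, given for single genes below, is thus not particular to these members. The median log2 fold change, higher over lower, was -0.25 for the members and -0.01 over all tested genes. The labels do not say whether the title number marks a litter, an age, a day of collection or something else.

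**Figure D2:**
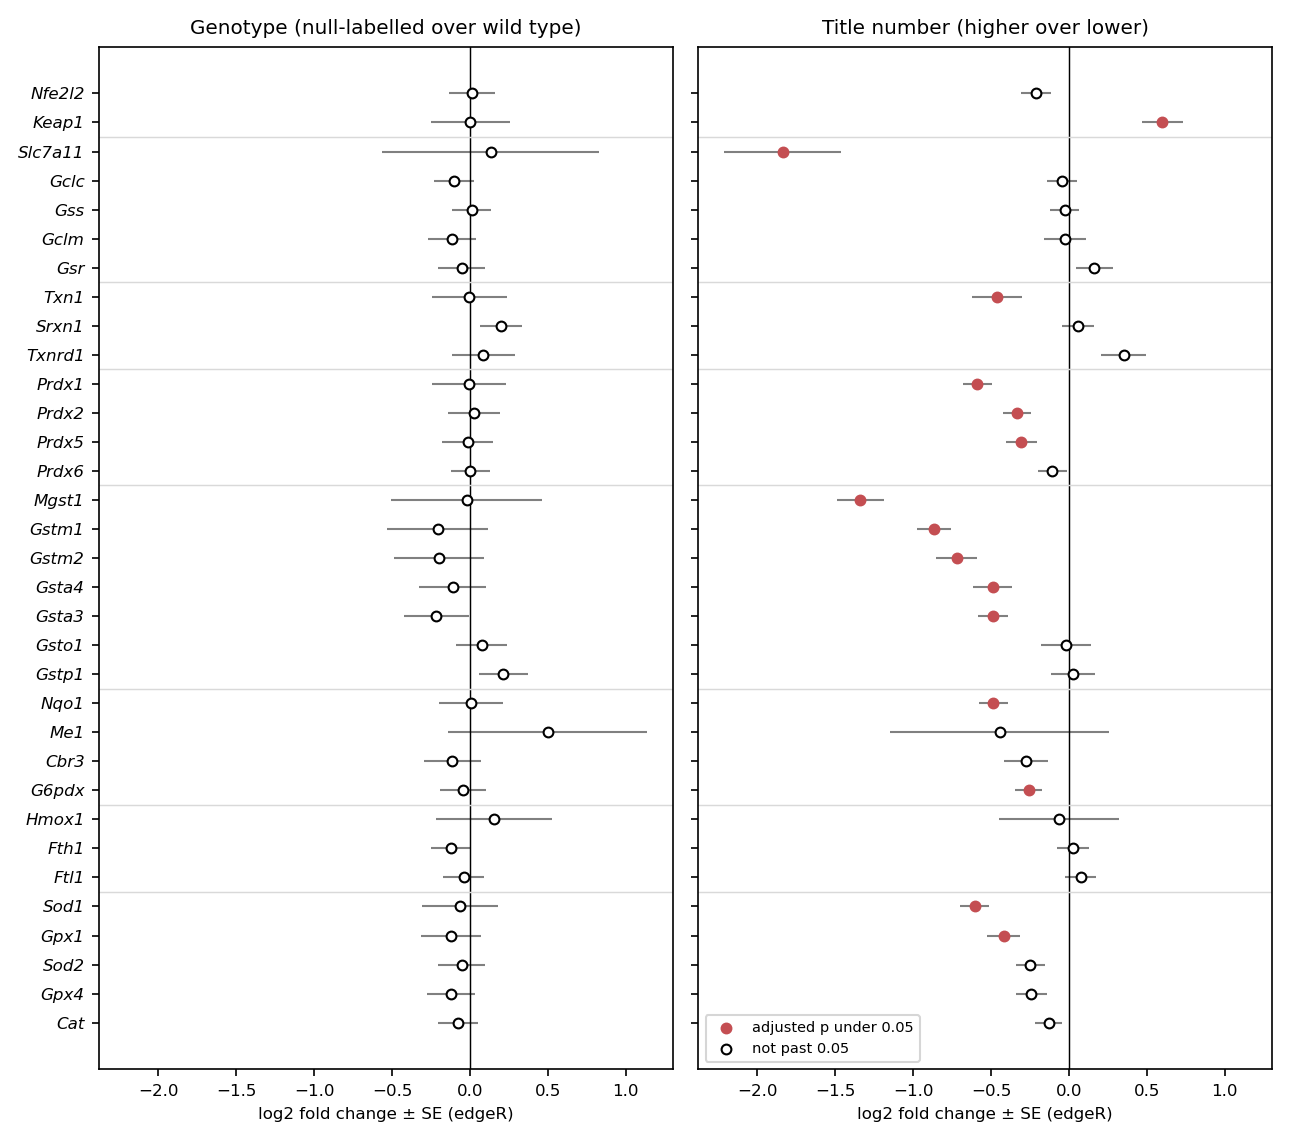
Log2 fold change with its SE from edgeR for the 33 genes, by genotype on the left (null-labelled over wild type) and by title number on the right (higher over lower). Filled red points have an adjusted p under 0.05 (0 on the left, 15 on the right) and grey lines divide the genes by role.

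Glutathione transferases included the most members that were lower. Of 7, 5 (71.4%) were called lower, against 20.1% of all tested genes. Gsto1 (-0.02, 95% interval -0.39 to 0.34) and Gstp1 (0.03, interval -0.29 to 0.34) were not called. Mgst1 (ENSMUSG00000008540, chromosome 6, 138140316 to 138156755) had 13.5, 16.6 and 5.54 CPM in wild type and 19.2, 7.38 and 8.59 CPM in the null-labelled libraries. All 3 low values belong to higher title numbers, and the difference was 2.53-fold (log2 fold change -1.34 ± 0.15 (SE), edgeR adjusted p = 0.00174). The mu-class genes Gstm1 and Gstm2 lie next to each other on chromosome 3, at 108012255 to 108017973 and 107981702 to 107986453. Gstm1 was at 72.8, 70.8 and 37.3 CPM in wild type and 72.7, 46.4 and 37.7 CPM in the null-labelled libraries (-0.87 ± 0.11, adjusted p = 0.00186, edgeR). Gstm2 was at 23.1, 27.7 and 15.1 CPM against 25.7, 17.3 and 14.5 CPM (-0.72 ± 0.13, adjusted p = 0.00404, edgeR). For both genes the 3 higher-numbered libraries lay below the other 3. Mu-class genes are close copies of each other, so the split of reads between them is uncertain, as it is for Gstp1 and its copy Gstp2. The alpha-class genes Gsta3 and Gsta4, with values given above, each had a log2 fold change of -0.49.

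Peroxiredoxins reduce peroxides, most of them with electrons from thioredoxin. Of 4, Prdx1, Prdx2 and Prdx5 (75%) were called lower, against 20.1% of all tested genes. Prdx6 was not called (-0.11, 95% interval -0.33 to 0.11). Prdx1, a cytosolic family member, was at 235, 244 and 158 CPM in wild type and 271, 196 and 168 CPM in the null-labelled libraries (-0.59 ± 0.09, edgeR adjusted p = 0.00283). Prdx5 was at 623, 682 and 546 CPM against 714, 594 and 525 CPM (-0.31 ± 0.10, edgeR adjusted p = 0.0353). In both, every library of the higher range was below every library of the lower one. Prdx2 had -0.33 ± 0.09; its exons overlap those of Junb and Rnaseh2a, and those of Prdx5 overlap Trmt112, so without a stated strand setting some reads cannot be assigned to one gene. The same holds for Gss with Acss2, G6pdx with Ikbkg and Me1 with A330041J22Rik. Exons of Keap1 overlap those of Gm16754 by 510 bases, those of Gclm overlap Gm17494 and Gm6061, and those of Ftl1 overlap Gm10252. These other genes have no row, so some reads counted for the members may be theirs.

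In the thioredoxin system the members did not move together. Txn1, thioredoxin itself, was at 320, 345 and 237 CPM in wild type and 363, 327 and 209 CPM in the null-labelled libraries, and was called lower (-0.46 ± 0.16, edgeR adjusted p = 0.0443). Null-labelled 2 lay among the lower-numbered libraries, so the 2 ranges overlapped. The thioredoxin reductase gene Txnrd1, between 76.2 and 128 CPM, had 0.35 ± 0.14 (adjusted p = 0.0768, edgeR), and Srxn1 had 0.06 ± 0.10; neither was called.

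Superoxide dismutases, catalase and glutathione peroxidases were all below 0, with 2 of 5 (40%) called lower, against 20.1% of all tested genes. None of the 5 overlapped between the ranges, a state found for 59.0% of all tested genes. Sod1, the cytosolic copper and zinc enzyme gene, was at 57.0, 60.1 and 38.4 CPM in wild type and 64.4, 44.8 and 39.9 CPM in the null-labelled libraries (-0.61 ± 0.09, edgeR adjusted p = 0.00259). Gpx1 was at 329, 368 and 252 CPM against 343, 287 and 242 CPM (-0.42 ± 0.10, edgeR adjusted p = 0.0134). Wild type 3 and null-labelled 2 and 3 were the low libraries for both. The mitochondrial Sod2 (-0.25), Gpx4 (-0.24) and Cat (-0.13) did not pass.

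Of the 4 genes for NADPH supply and for quinone or carbonyl reduction, 2 (50%) were called lower, against 20.1% of all tested genes. Nqo1, the quinone reductase gene and a common NRF2 readout, was at 90.6, 102 and 67.1 CPM in wild type and 106, 81.0 and 74.1 CPM in the null-labelled libraries (-0.48 ± 0.09, edgeR adjusted p = 0.00500). G6pdx, the first enzyme of the pentose phosphate pathway, was at 425, 419 and 365 CPM against 449, 372 and 351 CPM (-0.26 ± 0.09, edgeR adjusted p = 0.0398), the smallest called difference of the list. Both had no overlap between the ranges. The carbonyl reductase gene Cbr3 (-0.27 ± 0.14) and Me1 (-0.44 ± 0.70) were not called.

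Glutathione synthesis and iron genes were mostly not called. Gclc (-0.04), Gclm (-0.02), Gss (-0.03) and Gsr (0.16) had 95% intervals between -0.33 and 0.43. Slc7a11, which imports the cystine used for glutathione, was at 3.04, 2.68 and 0.405 CPM in wild type and 3.85, 1.87 and 1.12 CPM in the null-labelled libraries (-1.84 ± 0.37, edgeR adjusted p = 0.00615). It rests on 267 reads over the 6 libraries, 6 of them in wild type 3. Hmox1 (between 2.09 and 5.26 CPM), Ftl1 and Fth1 had log2 fold changes of -0.06, 0.08 and 0.03, none called.

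Among the regulators, Keap1 was 1.52-fold higher in the higher title numbers (log2 fold change 0.60 ± 0.13 (SE), edgeR adjusted p = 0.00782). Nfe2l2 had -0.21 ± 0.10 and was not called (adjusted p = 0.106, edgeR).

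**Figure D3:**
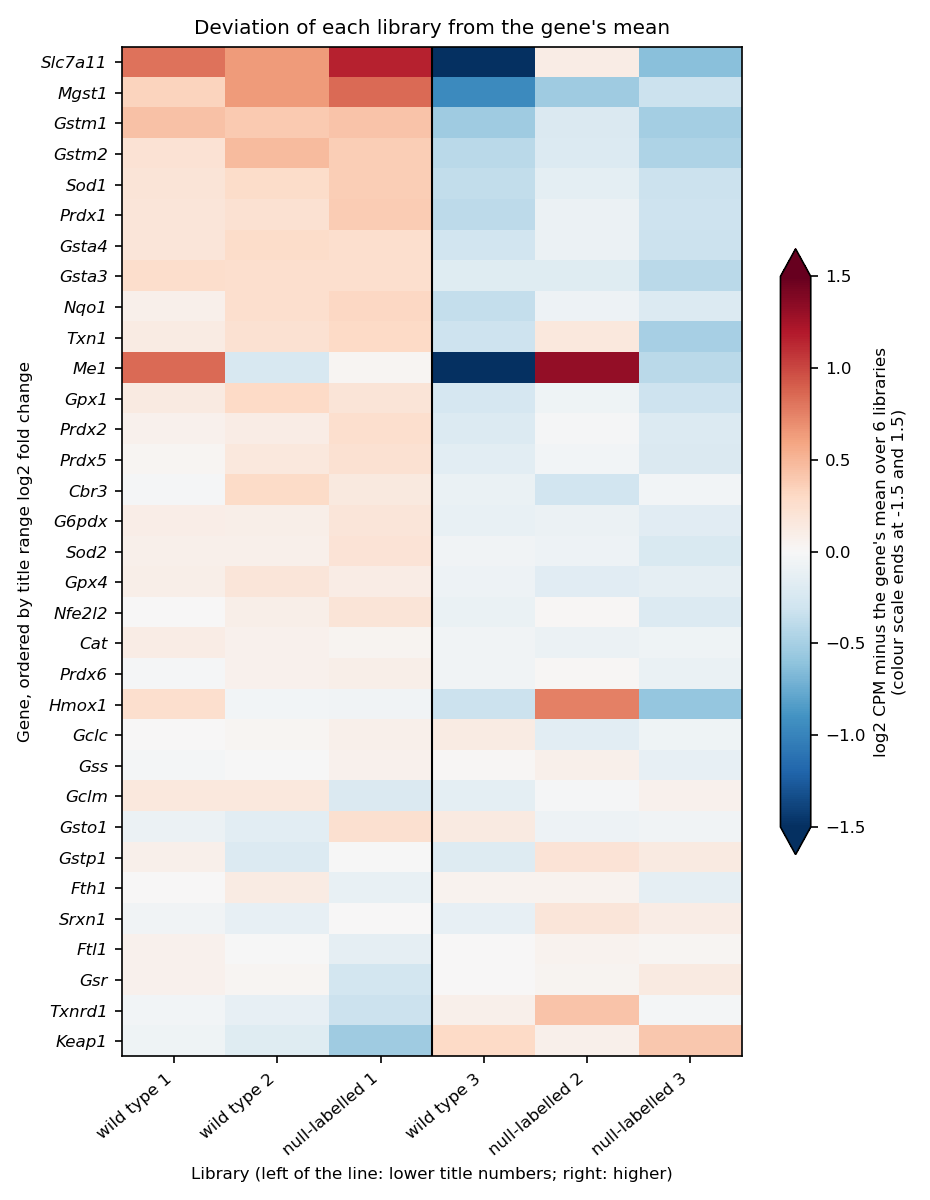
Log2 CPM of each library minus the gene's mean over the 6 libraries, for the 33 genes ordered by title range log2 fold change. The line divides the 3 lower-numbered libraries (left) from the 3 higher-numbered ones (right); Slc7a11, Mgst1, Gstm1 and Gstm2 at the top are lower on the right, and Keap1 at the bottom is higher.

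The title range difference was also read within each genotype. These readings split the same 6 libraries that gave the calls above, so they are no separate support for them. For 20 members it was below 0 in both genotypes, for 2 (Keap1 and Txnrd1) above 0 in both, and for 11 the signs were opposite. The share of all tested genes with these signs was not counted. Mgst1 had -1.44 within wild type and -1.27 within the null-labelled libraries, Gstm1 -0.95 and -0.79, Sod1 -0.61 and -0.60, and Prdx1 -0.60 and -0.57. These genes had the smallest title range p of the list in edgeR, and such a p favours like values in both genotypes. Keap1 had 0.42 and 0.78. Me1 had opposite values of -1.96 and 0.67.

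**Figure D4:**
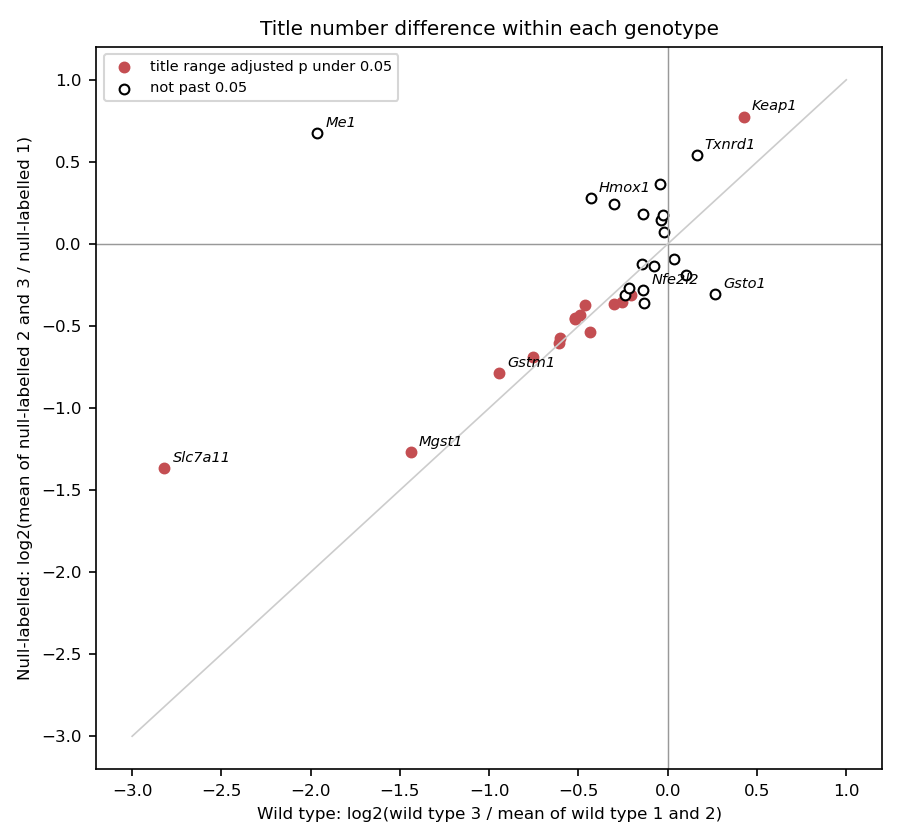
Title number difference of each of the 33 genes within wild type (x axis, log2 of wild type 3 over the mean of wild type 1 and 2) and within the null-labelled libraries (y axis, log2 of the mean of 2 and 3 over 1). The diagonal marks equal values, and filled points are genes called over all 6 libraries, which include those plotted; Mgst1 and Gstm1 lie near the diagonal and Me1 far from it.

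The number of members called by title range depended on single libraries. It was 5 without null-labelled 1, the single null-labelled library with a lower number, and 9 without wild type 3. It was 10 without wild type 2, and between 13 and 15 without each of the others. Over all tested genes the number called also varied in these fits, from 1103 to 5803. Members and all genes were not compared fit by fit, so these counts do not set the members apart. Slc7a11, Prdx1, Gstm1, Mgst1 and Sod1 were called in all 6 of these fits. G6pdx was called in 1 of the 6, and Txn1 and Prdx5 in 2. With libraries that share a title number summed, 14 members were called, all but G6pdx. That fit holds only a single summed library for each genotype in each range, and its count over all tested genes is not given here.

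Other quantities moved with the title number as well, and their part in these values was not tested. The 7 corneal epithelium markers summed to between 57682 and 65492 CPM in the lower and between 74867 and 82060 CPM in the higher title numbers. That sum is mostly Krt5, Aldh3a1 and Krt12. Of the 7, 3 were called, Aldh3a1, Tkt and Cdh1, each higher in the higher title numbers. Krt14 had a log2 fold change of -0.29 and Pax6 one of 0.01, neither called. Of 14 leukocyte markers 9 were tested and 7 called lower, among them Ptprc, the pan-leukocyte gene, with 24 to 42 counts in the lower-numbered and 4 to 7 in the higher-numbered libraries. The eighth called marker, Cd52, a surface glycoprotein gene of lymphocytes, was higher in the higher title numbers (1.22 ± 0.19, edgeR adjusted p = 0.00258). The sum of that list, mostly Itgam, was 288 to 330 against 289 to 335 CPM. Exons of Cd52, Csf1r and Itgam overlap those of Crybg2, Hmgxb3 and Gm49368, so some of their reads may belong to these other genes. Of 6 conjunctival markers 5 were tested and 2 called lower. The goblet cell mucin gene Muc5ac had 798, 90 and 1281 counts in wild type 1, wild type 2 and null-labelled 1 and between 10 and 45 in the higher-numbered libraries, while the list summed to 4609 to 5974 against 3115 to 5698 CPM. Of 8 stromal markers 2 were tested and 1, Vim, was called lower. Kera and Lum, which define keratocytes, were at 0 in every library, and the list summed to 13.0 to 14.4 against 10.7 to 17.2 CPM.

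Gene length also moved with the title number. Among all tested genes the median log2 fold change by title range was -0.21 in the shortest of 4 equal bins by exon length (at most 2782 bases), -0.01 and 0.09 in the middle bins and 0.12 in the longest. The 14 members called lower had a median exon length of 2076 bases and the other 19 one of 3469, against 4428 for all tested genes. In the shortest bin 8 of 16 members were called lower, against 26.4% of all genes there, and in the next bin 5 of 10, against 19.1%. The members' medians in these bins were -0.29 and -0.30. Whether length accounts for any of these values was not tested.

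A wider list of 81 genes, none of them a member, covers other regulators of NRF2 and the rest of glutathione, thioredoxin and NADPH metabolism. Of its 75 tested genes, 0 were called by genotype, and edgeR gave 0 an unadjusted p under 0.05. DESeq2 and limma voom also called 0. Its genotype median was 0.05. With the number range as a term, edgeR again called 0. On that fit the unadjusted p was under 0.05 for 6 of the 75 and for 497 of all 12847 tested genes. Among the 6 were Akr1b8 (0.58) and Chac1 (0.44). The smallest genotype p belonged to Akr1b8, an aldo-keto reductase gene and NRF2 target, at 7.67, 9.03 and 5.74 CPM in wild type and 10.6, 11.5 and 9.15 CPM in the null-labelled libraries. These groups did not overlap, with a log2 fold change of 0.47 ± 0.21 (edgeR adjusted p = 0.9996). Non-overlap by genotype was found for 1 of the 75 genes, against 3.73% of all tested genes. Next by genotype p came Gpx2 (0.51 ± 0.42), the corneal aldehyde dehydrogenase gene Aldh3a1 (0.32 ± 0.26) and Gpx7 (-0.42 ± 0.36).

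By title range, 17 of the 75 genes (22.7%) were called higher and 25 (33.3%) lower, against 24.6% and 20.1% of all tested genes, with a median of -0.26. Every one of its groups held genes called in each direction. Of 14 genes of NRF2 regulation 8 (57.1%) were called higher and 1 (7.14%) lower. Their exon lengths ran from 2594 (Maff) to 16908 bases (Btrc), against a median of 4428 for all tested genes. Of all genes, 34.2% in the longest bin by exon length were called higher, against 9.93% in the shortest. The part of length in the regulators' calls was not tested. Mafk, which encodes a small MAF partner of NRF2, was at 86.1, 82.0 and 150 CPM in wild type and 77.7, 156 and 126 CPM in the null-labelled libraries (0.85 ± 0.10, edgeR adjusted p = 0.00182). Nfe2l1, the NRF2 relative that controls proteasome genes, had 0.89 ± 0.13, and Gsk3b, a kinase that marks NRF2 for degradation, 0.59 ± 0.09. Keap1, among the members, was also called higher.

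Of 14 transferases outside the member list, 6 (42.9%) were called lower and 1 (7.14%), Gsto2, higher, against 20.1% and 24.6% of all tested genes. Mgst3 was at 132, 151 and 97.1 CPM in wild type and 163, 107 and 100 CPM in the null-labelled libraries (-0.60 ± 0.09, edgeR adjusted p = 0.00271). Txnip, the inhibitor of thioredoxin, had 503, 521 and 282 CPM against 557, 281 and 224 CPM, a mean of 262 CPM in the higher against 527 CPM in the lower title numbers (edgeR adjusted p = 0.00178). Its higher-numbered libraries all lay below the lower-numbered ones. Gpx8, an endoplasmic reticulum peroxidase gene, had -0.95 ± 0.14, and Chac1, which degrades glutathione, -0.69 ± 0.10. Sesn2, a stress-induced regulator of peroxide and nutrient signalling, was higher, at 9.31, 7.34 and 15.6 CPM in wild type and 6.65, 18.7 and 18.2 CPM in the null-labelled libraries (1.18 ± 0.17, edgeR adjusted p = 0.00239).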

How the data were processed

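The deposited values are raw read counts per Ensembl gene, as the whole-number values of the authors' table show. Per the labels, RNA came from a miRNeasy preparation and reads from an Illumina HiSeq. The sources used here do not give aligner, counter, strand setting, build or annotation. Columns were matched to samples by title. Symbols, positions and exon lengths came from GENCODE M21 (GRCm38), which held 24991 of 25006 identifiers and was not checked against the annotation used for counting.

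Counts were scaled with TMM, filtered with filterByExpr (12847 genes) and tested over all genes with edgeR 4.0.16 (glmQLFit, glmQLFTest; R 4.3.3), by genotype alone and by title number range with genotype as a term. A call is a p under 0.05 after Benjamini-Hochberg adjustment over all tested genes. SE is the log2 fold change divided by the square root of F. DESeq2 1.42.0, limma voom 3.58.1, other scalings and filters, omission of each library and summed libraries were alternatives. DESeq2 and voom fits that include number range, the range test on summed libraries and the interaction were added after seeing the data. The edgeR steps were tested on simulated counts.

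Members and lists were chosen with earlier results of these data known. Values in every library are given for Nfe2l2, Keap1, the member with the highest RPKM of each role, and the 8 members with the smallest p in each comparison; Gsta4 and Gsto2 of the wider list were named after their values were seen. Within-range and within-genotype values are log2 ratios of mean CPM.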

Additional observations from a re-analysis of the deposited data

Results flagged for a closer look

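For 6 members the null-labelled libraries lay on opposite sides of wild type in the 2 title number ranges, every library below in one range and every library above in the other. In the lower range null-labelled 1 was compared with wild type 1 and 2, and in the higher range null-labelled 2 and 3 with wild type 3. The difference between the 2 genotype effects, higher minus lower title numbers, was tested as an interaction in edgeR, a fit added after the data were seen. None passed, with an adjusted p of 0.999 for each, and 0 of all 12847 tested genes were called. The 6 were picked by this pattern in the same libraries, and its share over all tested genes was not counted. The number 6 is therefore not a result about these members.

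Gclm, below wild type in the lower and above it in the higher range, had a difference of 0.55 ± 0.21 (SE, log2; edgeR unadjusted p under 0.05). Gsr, in the same direction, had 0.41 ± 0.20 and Ftl1 0.20 ± 0.20. Gsto1, above wild type in the lower and below it in the higher range, had -0.57 ± 0.32, Gclc -0.29 ± 0.19 and Sod2 -0.23 ± 0.19. Outside this pattern, Me1 also had an unadjusted interaction p under 0.05 in edgeR.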

How the results depend on the processing

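The genotype comparison called 0 members under every alternative run, and the smallest adjusted p of a member in any of them was 0.527 (Srxn1 without null-labelled 1, edgeR). Over all genes 1 was called, against 6 with DESeq2, 18 with DESeq2 and the title number range as a term, and 0 with libraries of 1 title number summed. The number of members whose genotype groups did not overlap, 1 of 33, ran from 1 to 7 when each library was left out, with 6.26% to 26.9% of all tested genes not overlapping in the same runs; the 7 members (21.2%) without null-labelled 1 stand beside the 26.9%. By title range, leaving out each library gave between 5 and 15 called members and between 1103 and 5803 called genes. The other alternatives gave 14 to 17 members. No count over all genes is given beside them, so these numbers are not a result about the members. Sod2 was called lower without the filter on low counts and without genotype as a term, Txnrd1 higher and Gpx4 lower under 1 of these each.

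Some uncalled values changed sign when each library was left out. By genotype they ran from -0.14 to 0.24 for Txnrd1, from -0.18 to 1.25 for Me1 and from -0.27 to 0.42 for Hmox1. By title range they ran from -0.30 to 0.23 for Gclm, from -1.97 to 0.64 for Me1, from -0.20 to 0.10 for Gclc, from -0.045 to 0.35 for Gsr, from -0.14 to 0.16 for Gstp1, from -0.32 to 0.26 for Gsto1 and from -0.029 to 0.16 for Ftl1. No paired analysis was possible because the genotypes share no title number. Slc7a11 and Hmox1 rest on 267 and 395 reads over the 6 libraries.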
